A study of Mus musculus with 2 samples.

Results

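Actin and tropomyosin transcripts were examined in subcutaneous tumours of Panc02, a mouse pancreatic carcinoma line, grown in C57BL/6 mice in standard or enriched housing. The members were 10 genes fixed by name: the striated muscle actins Acta1 and Actc1, the smooth muscle actins Acta2 and Actg2, the cytoplasmic actins Actb and Actg1, and the tropomyosins Tpm1, Tpm2, Tpm3 and Tpm4. All 10 were found, on 20 of the 41174 probes of the array. The Actg1 probes carried a transcript number in place of a name and were taken through the older alias Actg in their description. Mice of both groups were assigned to their housing at random at 3 weeks of age, were injected with the same tumour cells and stayed in that housing for 5 more weeks. The enriched environment is housing with more stimulation than the ordinary caging of the standard environment. RNA of homogenised tumours, and so of any host tissue in them, from 6 mice was pooled for each housing before labelling, which gave the standard pool and the enriched pool, and the pools were read on 1 one-colour array each. With no replicates there is no test of the housings, and every value describes these 2 pools.

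Levels are given as the log2 intensity of a probe less the log2 of the 75th percentile of all probes on that array, and differences as the level in the enriched pool minus that in the standard pool. Levels are compared between the pools for the same probe and never between probes. The summed level of a list adds the linear levels of its measured genes, so genes with bright probes weigh most in it. The 30307 probes whose signal was well above background in both pools count as measured; they covered 20072 genes, whose median difference was 0.03. The number of arrays limits the precision. Where a probe was spotted repeatedly, its levels scattered by 0.049 (median SD) in the standard pool and 0.063 in the enriched pool, and where a gene had several probes their differences scattered by 0.18. Neither covers the spread between mice.

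Actin is the protein of the thin filaments of muscle and of the cytoskeleton of every cell. Mammals have separate genes for the striated muscle, smooth muscle and cytoplasmic forms, whose proteins are nearly identical and whose transcripts differ most outside the coding part. Tropomyosin is a coiled coil that lies along the actin filament. In striated muscle it works with troponin to make contraction depend on calcium, and in other cells it sets which proteins may bind the filament. Tpm1, Tpm2 and Tpm3 each yield muscle and non-muscle forms through alternative splicing, in some of them with alternative start sites too, whereas Tpm4 yields mainly a non-muscle form. In tumours, Acta2 is widely used as a mark of activated fibroblasts and of the cells that wrap vessels.

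Transcription of muscle actins is known to depend on serum response factor, which binds the CArG box. RefSeq start site windows on GRCm38.p6, from 250 bases before to 50 bases after a start, were found for 8 of the 10 genes. Of the actins among them, 1 sequence is shown for each of Acta1 and Actc1, which were lower in the enriched pool, and for Acta2 and Actg1, which stayed within 2-fold when their probes were averaged. They lie at chr8:123894726-123895025, chr2:114052826-114053125, chr19:34255324-34255623 and chr11:120348446-120348745, each on the minus strand. Runs of 10 capitals mark a CArG box or a match with at most 1 letter of its inner part changed, and runs of 6 capitals mark CATTCC or its complement GGAATG, the MCAT element bound by TEAD factors.
Acta1: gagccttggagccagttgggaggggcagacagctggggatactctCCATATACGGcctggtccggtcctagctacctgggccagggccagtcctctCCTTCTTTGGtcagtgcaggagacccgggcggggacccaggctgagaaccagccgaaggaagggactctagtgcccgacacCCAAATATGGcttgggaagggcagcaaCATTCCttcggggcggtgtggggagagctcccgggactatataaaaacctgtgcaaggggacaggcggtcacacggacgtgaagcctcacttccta
Actc1: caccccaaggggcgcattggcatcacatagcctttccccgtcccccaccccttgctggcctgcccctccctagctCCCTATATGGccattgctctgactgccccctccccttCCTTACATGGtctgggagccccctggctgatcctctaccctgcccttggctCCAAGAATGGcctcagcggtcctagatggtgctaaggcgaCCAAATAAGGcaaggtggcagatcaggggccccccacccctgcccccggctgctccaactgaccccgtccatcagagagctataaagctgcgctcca
Acta2: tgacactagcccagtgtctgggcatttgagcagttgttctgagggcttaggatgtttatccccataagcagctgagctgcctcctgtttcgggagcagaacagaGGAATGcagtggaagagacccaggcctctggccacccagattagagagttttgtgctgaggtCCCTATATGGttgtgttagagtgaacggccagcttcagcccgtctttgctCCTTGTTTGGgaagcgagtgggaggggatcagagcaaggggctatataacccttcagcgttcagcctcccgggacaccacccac
Actg1: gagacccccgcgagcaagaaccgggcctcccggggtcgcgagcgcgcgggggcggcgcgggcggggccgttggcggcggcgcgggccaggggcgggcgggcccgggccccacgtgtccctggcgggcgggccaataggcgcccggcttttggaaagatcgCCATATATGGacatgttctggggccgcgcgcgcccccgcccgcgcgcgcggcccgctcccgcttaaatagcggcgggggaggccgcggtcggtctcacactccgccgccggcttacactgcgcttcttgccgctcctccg
An exact CArG box stood 73 bases before the start of Acta1 (CCAAATATGG), 47 bases before that of Actc1 (CCAAATAAGG) and 90 bases before that of Actg1 (CCATATATGG). Beside these, Acta1 had 2 and Actc1 had 3 matches with 1 letter changed. Acta2 had no exact match in this window but had 2 matches with 1 letter changed, CCCTATATGG at 84 and CCTTGTTTGG at 34 bases before the start. Of 32841 mouse windows of this length, 1.63% held an exact CArG box, 9.98% held one with at most 1 letter changed, which includes the exact matches, and 14.7% held CATTCC on either strand. The Tpm1, Tpm2 and Tpm4 windows held neither kind of CArG match, and both Tpm3 windows held a match with 1 letter changed. These matches describe the letters only, and the arrays do not measure binding.

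Both striated actins were more than 2-fold lower in the enriched pool, and Acta1 had the widest gap of the 10 members averaged over probes. Acta1, the main actin of adult skeletal muscle, was read by a single probe, on chromosome 8 from 122479438 to 122479497 on mm7. Its intensity was 216884 in the standard pool and 1761 in the enriched pool, or levels of 8.17 and 0.84. The difference of -7.33 is 161-fold, and placed Acta1 at rank 52 from the lowest of the 20072 measured genes. Actc1, the heart actin that is also made in developing skeletal muscle, was at 2.16 in the standard pool and at -0.09 in the enriched pool. Its difference of -2.24, or 4.74-fold, came from 1 probe, which covers 924 bases of chromosome 2 from 113789115 to 113790038 on mm7. Most probes cover 60 bases, so this probe crosses an intron.

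Skeletal muscle markers moved with these values, and cardiac markers as a list did not. Skeletal muscle fibre markers were at least 2-fold lower in the enriched pool for 10 of 10 genes, beside 9.58% of all measured genes. Their median was -7.82, with a range from -8.56 for the creatine kinase gene Ckm to -6.74 for the fast myosin gene Myh4. Their summed linear level was 989 against 5.95. Of 8 cardiac markers, 7 were measured, with a median of 0.28 and 4 of them higher. These 4 were all within 2-fold and at low levels, from -3.75 to -2.5 in the standard pool. At least 2-fold lower were 2 of the 7, beside the same 9.58% of all measured genes. They were Sln at -2.58, which encodes a calcium pump inhibitor of muscle, and the atrial myosin light chain gene Myl4 at -1.28. The summed level of the cardiac list was 1.66 against 1.13. The cardiac myosin gene Myh6 was well above background in the standard pool only and at least 10.5-fold brighter there. In pooled tissue, fewer cells of a type and less RNA per cell cannot be told apart, and the part of muscle tissue in the Acta1 and Actc1 values was not tested.

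**Figure D1:**
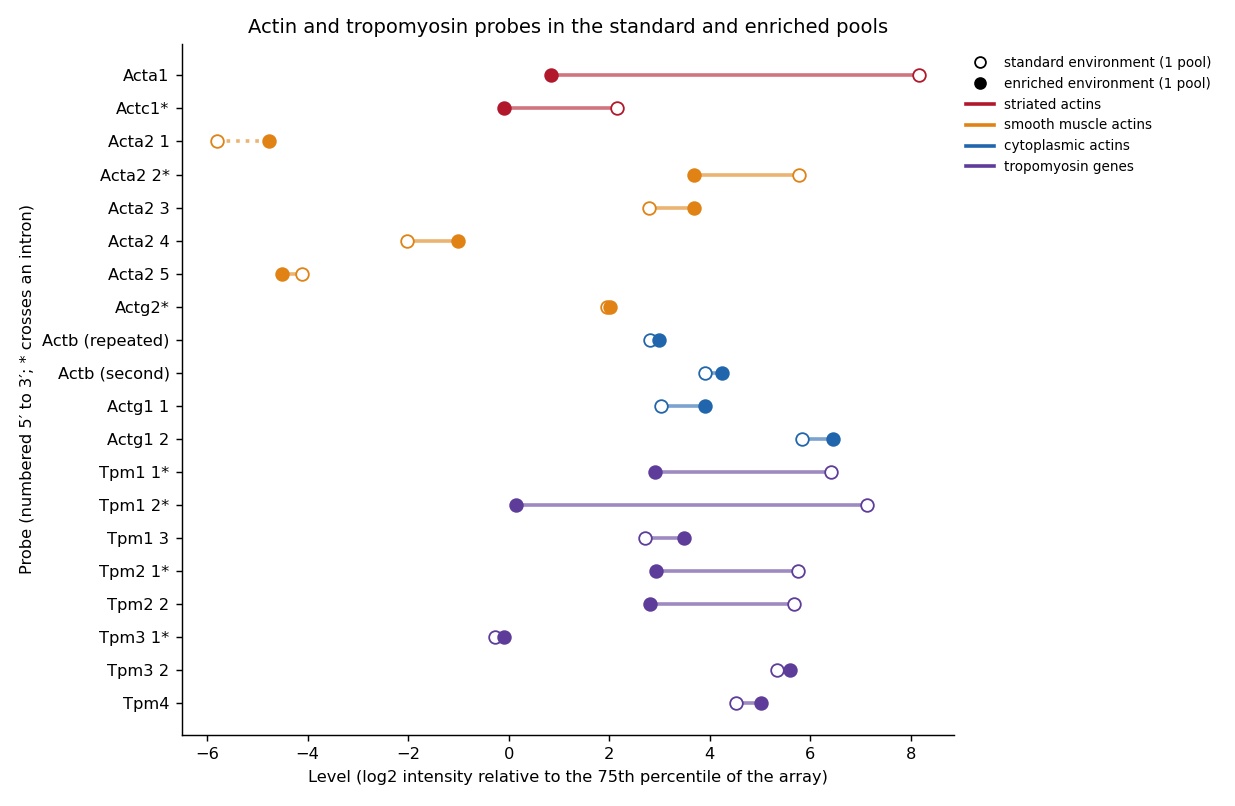
Levels of the 20 probes, in log2 units from the 75th percentile of each array, in the standard (open circles) and enriched (filled circles) environment pools, 1 array each. The dotted line marks the Acta2 probe that was not well above background in the standard pool; the widest gaps are those of Acta1, from 8.17 to 0.84, and of a Tpm1 probe, from 7.13 to 0.15.

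Acta2, the alpha actin of vascular smooth muscle and of myofibroblasts, gave opposite answers from its own probes. The probe with 10 spots on each array, on chromosome 19 from 33942803 to 33942862 on mm7, was at 2.79 (SD 0.034 over 10 spots) in the standard pool and at 3.68 (SD 0.041 over 10 spots) in the enriched pool. It was therefore higher by 0.89, or 1.85-fold, a gap larger than the spot SD, which covers technical error only. A second probe, from 33942440 to 33942499, went from -2.02 to -1.0, a difference of 1.02 or 2.02-fold. A probe that covers 3255 bases, from 33949738 to 33952992, and so crosses at least 1 intron, was lower, with 5.77 in the standard pool and 3.68 in the enriched pool. Its difference of -2.09 is 4.26-fold.

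The remaining Acta2 probes were dim. The one from 33941939 to 33941997 was at -4.11 and -4.52, a difference of -0.42. The one from 33954688 to 33954747 was not well above background in the standard pool and was at least 1.88-fold brighter in the enriched pool, at -4.77. Averaged over its 4 measured probes Acta2 differed by -0.15 with an SD between probes of 1.45, a mean that describes none of them, and the sign of this mean changed with the way probes were combined: 0.24 for their median and -2.09 for the brightest probe. Its probes spanned 3.11, and 25 of the 6918 genes with several measured probes, Acta2 included, spanned at least as much.

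Actg2, the gamma actin of gut smooth muscle, was nearly level, with 1.96 in the standard pool and 2.02 in the enriched pool. Its difference of 0.06 became -0.02 under another background correction, so no direction is given. The Actg2 probe covers 327 bases, from 83548244 to 83548570 on chromosome 6 of mm7, and also crosses an intron. Actin coding sequences are much alike, and whether intron-crossing actin probes also bound transcripts of other actin genes was not tested, since probe sequences were not used here.

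The cytoplasmic actins were slightly higher in the enriched pool on all 4 of their probes, and none reached 2-fold. Actb, beta actin, had 10 spots of its main probe on each array, on chromosome 5 from 141936471 to 141936530 on mm7. It was at 2.82 (SD 0.047 over 10 spots) in the standard pool and at 3.0 (SD 0.045 over 10 spots) in the enriched pool. The difference of 0.18 is 1.13-fold, equal to the 0.18 by which probes of a gene typically differ. The second Actb probe is placed on chromosome X, from 147192950 to 147193009, away from the other, which leaves it uncertain as a reading of Actb; it was at 3.90 and 4.25, a difference of 0.35.

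Actg1, cytoplasmic gamma actin, had the larger difference of the pair, 0.74 against 0.27 for the Actb mean. The probe from 120455177 to 120455236 on chromosome 11 of mm7 was at 5.84 in the standard pool and at 6.45 in the enriched pool, and the probe from 120456102 to 120456161 was at 3.03 and 3.90. These are differences of 0.61 and 0.87, whose mean is 1.67-fold. Another 2 probes lie close by and carry no gene name, only the words gamma actin-like protein. The one from 120455913 to 120455972 was higher, at 2.10 and 2.85. The one from 120456730 to 120456820, which covers 91 bases and so crosses an intron, was lower, at 5.10 and 4.01. The last is the most upstream of the 4, and its difference of -1.08 was opposite to that of the others.

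Tpm1, the alpha tropomyosin of striated muscle and of many other cells, showed the widest disagreement among its probes. From the start of the gene onwards, the probe from 67064287 to 67065357 on chromosome 9 of mm7 was at 6.42 in the standard pool and at 2.92 in the enriched pool, a difference of -3.50 or 11.3-fold. The next, from 67059621 to 67061176, was at 7.13 and 0.15, a difference of -6.98 or 126-fold, close to that of Acta1 at -7.33. The most downstream probe, from 67054531 to 67054590, was at 2.72 and 3.48 and so was higher by 0.76, or 1.69-fold. As background, the most downstream exon of Tpm1 is used by the smooth muscle and many non-muscle forms, whereas the striated muscle forms end in exons that lie before it. The array positions are on mm7, for which no annotation was used, so no probe was assigned to an exon.

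An unnamed probe described as a tropomyosin fragment lay from 67055529 to 67055588, close to the downstream Tpm1 probe. It was dim, at -5.27 in the standard pool and -4.21 in the enriched pool, and differed by 1.07 in the same direction as its neighbour. The mean over the 3 named Tpm1 probes was -3.24 with an SD of 3.88, and without the 2 probes that cross an intron only the 0.76 of the downstream probe remained. The range of 7.74 was reached or passed by 3 of the 6918 genes with several measured probes, Tpm1 among them.

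**Figure D2:**
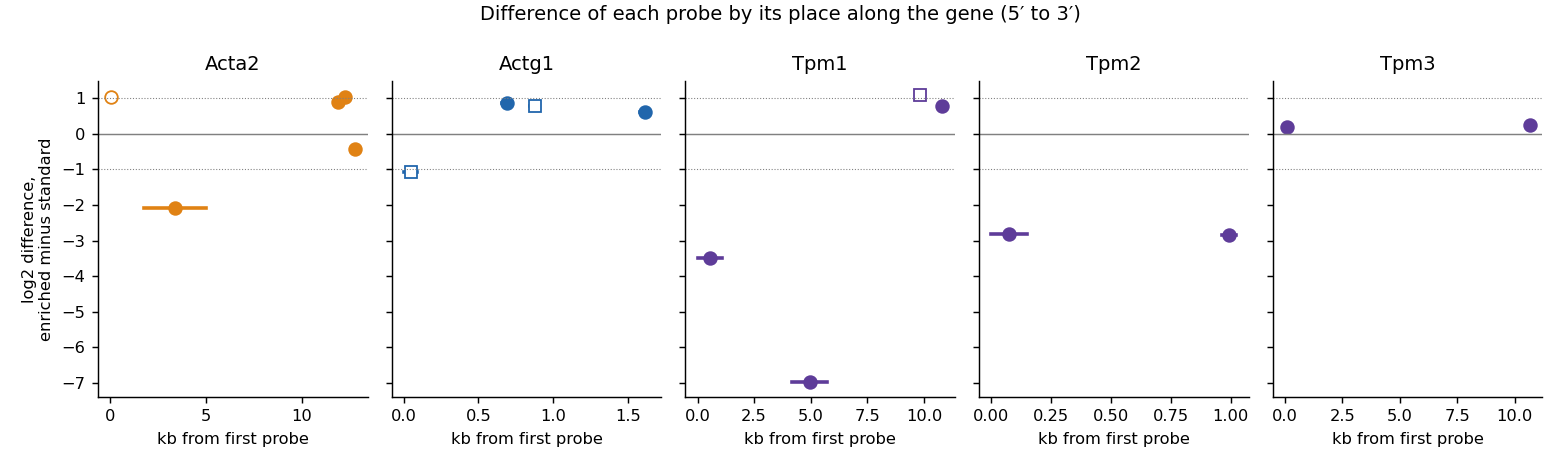
Difference between the pools for each probe (log2, enriched minus standard) against its distance in kb from the most upstream probe, in the direction of transcription. Bars show the stretch a probe covers, open squares are probes with no gene name, the open circle is the Acta2 probe not well above background in the standard pool, and dotted lines mark 2-fold; the Tpm1 probes run from -3.50 and -6.98 upstream to 0.76 downstream, while both Tpm2 probes lie near -2.8.

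Tpm2, beta tropomyosin of skeletal and smooth muscle, was lower on both of its probes. On chromosome 4 of mm7, the probe from 43532218 to 43532277 was at 5.67 in the standard pool and 2.82 in the enriched pool, and the probe from 43533092 to 43533242, which crosses an intron, at 5.76 and 2.94. The differences were -2.84 and -2.81, with a mean of -2.83 or 7.09-fold and an SD between probes of 0.02. A probe in 1 block and a probe across an intron thus gave the same value for this gene.

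Tpm3 and Tpm4 differed little. Tpm3, whose products include the tropomyosin of slow muscle fibres and a widespread cytoskeletal form, was at 5.35 and 5.60 on the probe from 90231159 to 90231218 on chromosome 3 of mm7. Its other probe, from 90220546 to 90220755, was at -0.27 and -0.09. The differences of 0.25 and 0.18 have a mean of 0.21. Tpm4, a tropomyosin of the cytoskeleton, was at 4.52 in the standard pool and 5.03 in the enriched pool on its single probe, on chromosome 8 from 70676003 to 70676062, a difference of 0.51 or 1.43-fold.

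Set side by side, the classes differed in how many members passed 2-fold. At the gene level 4 of the 10 members, Acta1, Tpm1, Tpm2 and Actc1, were at least 2-fold lower in the enriched pool, against 9.58% of all measured genes, and 0 were at least 2-fold higher, against 5.75%. The median was -4.79 for the 2 striated actins, -0.04 for the 2 smooth muscle actins, 0.50 for the 2 cytoplasmic actins and -1.31 for the 4 tropomyosins, and 0.03 for all measured genes. The smooth muscle value rests in part on the Acta2 mean, and the tropomyosin value on the Tpm1 mean. Their probes disagreed, with SDs of 1.45 for Acta2 and 3.88 for Tpm1. By probe, 7 of the 19 measured were at least 2-fold lower, against 8.88% of all measured probes, and 1 was at least 2-fold higher, against 5.55%. Of the 7 member probes that cross an intron 5 were at least 2-fold lower, and of the 12 others 2 were, with medians of -2.24 and 0.43. Over the whole array the 3999 measured probes that cross an intron had a median of 0.07 and 8.83% of them were at least 2-fold lower, beside 0.05 and 8.86% for the rest.

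**Figure D3:**
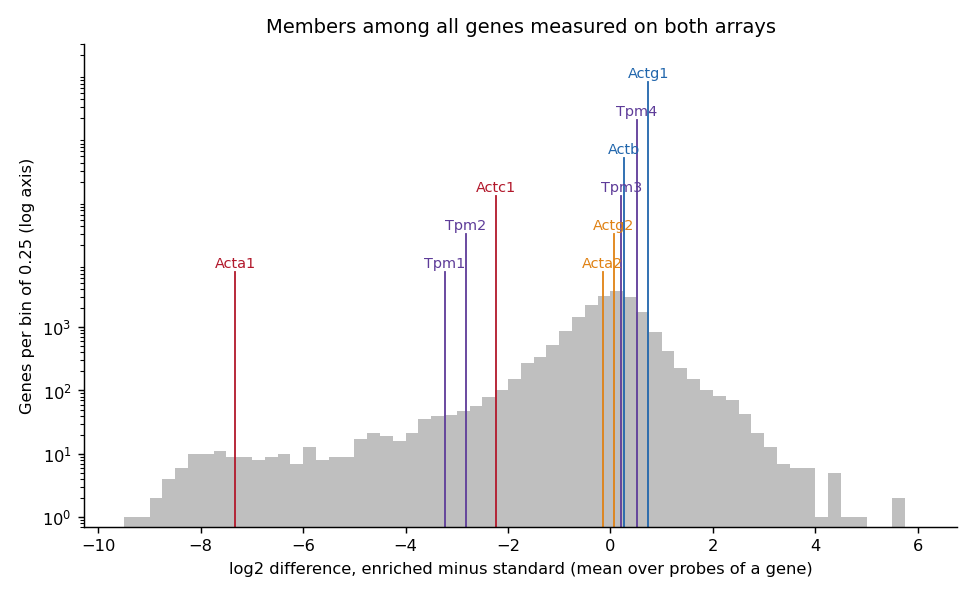
Number of genes (log axis) by log2 difference between the pools for the 20072 genes measured on both arrays, with lines at the 10 members' differences averaged over probes. Acta1 at -7.33 lies in the lower tail, Tpm1, Tpm2 and Actc1 lie between -3.24 and -2.24, and the other 6 lie between -0.15 and 0.74.

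Genes of the striated thin filament were lower together with Acta1. Of 22 genes in the list, 19 were measured, with a median of -6.08. At least 2-fold lower were 16 of these, beside 9.58% of all measured genes, and at least 2-fold higher 0, beside 5.75%. Actn2 and Actn3, the alpha actinins that anchor thin filaments at the Z-disc, were lower by 367-fold and 242-fold, with levels of 3.92 and -4.60 for Actn2 and of 5.90 and -2.02 for Actn3. The fast troponin T gene Tnnt3 went from 8.16 to 0.26, or 239-fold, and Neb, which encodes the nebulin that runs along the thin filament, from 3.72 to -4.02. The filament-end proteins Tmod1 and Lmod2 and the nebulin-stabilising Klhl41 were well above background in the standard pool only, where they were at least 119-fold, 46.1-fold and 162-fold brighter. Named after their values were seen, the 3 measured genes that stayed within 2-fold were Tnnt2 at 0.90, Tnni3 at 0.43 and Nebl at -0.31. Tnnt2 and Tnni3, the heart forms of troponin T and I, are also in the cardiac marker list. Nebl, which is typical of the heart, was at -5.05 and -5.36, near the lowest levels well above background of -5.68 and -6.21. Tnnc1, the troponin C of heart and slow muscle, also named after its value was seen, was lower, at -1.71.

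Smooth muscle contractile genes moved in both directions. Of 20 genes, 19 were measured, 13 of them lower, with a median of -0.21 and a summed level of 59.1 against 38.1. At least 2-fold lower were 7, beside 9.58% of all measured genes, and at least 2-fold higher 2, beside 5.75%. The actin-binding proteins Cnn1 and Tagln, both also made by myofibroblasts, were the higher ones, Cnn1 going from -2.09 to 0.39 and Tagln from 0.16 to 2.36, or 5.58-fold and 4.62-fold. Myh11, the smooth muscle myosin that defines mature smooth muscle, was at -1.71 in the standard pool and -1.87 in the enriched pool. Des at -6.80, Pdlim3 at -6.41 and Synpo2 at -3.23 were the lowest. These genes serve striated muscle too, Des is also in the fibre marker list, and the 3 Synpo2 probes had an SD of 3.70 among their differences.

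Markers of the cells known to make Acta2, and of leukocytes, were mixed, whereas the endothelial markers were all lower. Vascular smooth muscle and pericyte markers had a median of 0.13, with 3 of 10 at least 2-fold lower, namely Abcc9 at -2.78, Kcnj8 at -1.65 and Rgs5 at -1.31, and 2 at least 2-fold higher, Cnn1 and Tagln. Their summed level was 9.93 in the standard pool and 14.9 in the enriched pool. Fibroblast markers had a median of 1.08 and a summed level of 35.9 against 49.3. Of these 10 genes, 5 were past 2-fold on the higher side, led by the collagen gene Col3a1 at 2.96. On the lower side 3 passed it, Pdgfrb at -1.18, Dcn at -1.03 and Pdgfra at -1.02, so the list had no single direction. Among all measured genes, 5.75% passed 2-fold on the higher side and 9.58% on the lower side. Endothelial markers were lower for 7 of 7 genes, with a median of -0.81 and a summed level of 8.74 against 5.75. Of these, 2 were at least 2-fold lower, Flt1 at -1.6 and Tie1 at -1.05. Leukocyte markers had a median of 0.06 over 8 genes and a summed level of 158 against 62.2. In the leukocyte list the neutrophil genes S100a9, at 6.93 and 5.60, and S100a8, at 5.02 and 3.14, were at least 2-fold lower, and the other 6 were within 2-fold. The part of these cell types in the Acta2 probes that were higher was not tested.

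Regulators of cytoplasmic actin leaned the same way as Actb and Actg1. All 49 genes of the list were measured, 37 of them higher, with a median of 0.41 beside 0.03 for all measured genes. At least 2-fold higher were 4 of the 49, beside 5.75% of all measured genes, and at least 2-fold lower 2, beside 9.58%. Among those past 2-fold were the filament-severing Dstn at 1.19, the transgelin Tagln2 at 1.03 and the alpha actinin Actn4 at 1.0 on the higher side, and the profilin Pfn2 at -3.45 and the filament-end protein Tmod2 at -1.05 on the lower side. Cfl1, the main cofilin, at -0.01 and Pfn1, the main profilin, at -0.13 were nearly level. The folding list, made of the chaperonin and prefoldin subunits that fold newly made actin together with the actin methyltransferase Setd3, had a median of 0.36 over 15 genes, with 12 higher and none of the 15 past 2-fold in either direction. Epithelial markers were at least 2-fold higher for 8 of 8 genes, with a median of 1.96 and a summed level of 180 against 641, and their part in these small differences was not tested.

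**Figure D4:**
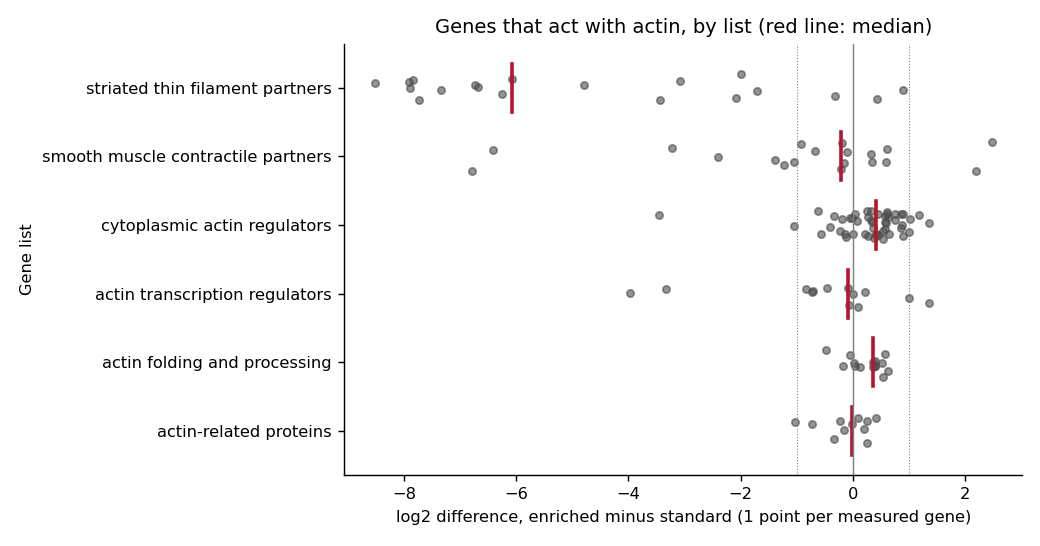
Log2 difference between the pools (enriched minus standard) for each measured gene of 6 lists of genes that act with actin, with a red line at each median and dotted lines at 2-fold. The striated thin filament list is centred at -6.08, the other medians lie between -0.21 and 0.41.

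Regulators of actin gene transcription moved in both directions. Srf, the serum response factor that binds the CArG box, was at 1.1 in the standard pool and 1.33 in the enriched pool, a difference of 0.22. Its cofactors Mrtfa at 0.09 and Mrtfb at -0.09, named after their values were seen, were nearly level. Myocd, the cofactor of smooth and heart muscle, was at -4.95 and -5.40, near the lowest levels well above background of -5.68 and -6.21. The muscle factors Myod1 at -3.98 and Mef2c at -3.33 were at least 2-fold lower, and Tead4 at 1.36 and the actin-responsive cofactor Fhl2 at 1.01 at least 2-fold higher. Abra, an actin-binding activator of the serum response factor in striated muscle, and the muscle factor Myog were well above background in the standard pool only, where they were at least 406-fold and 8.89-fold brighter. Over the 13 measured genes of the list the median was -0.09.

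Actin-related proteins, which share the actin fold but serve dynein transport and chromatin, were near 0, with a median of -0.01 over 11 measured of 15 genes. Actl7a, a testis form, was at -4.95 and -5.97, near the background. Actr3b, a form of the Arp3 subunit that seeds branched filaments, was well above background in the standard pool only and at least 11-fold brighter there. Actrt2, another testis form, was well above background in the enriched pool only, with no fold bound above 1.

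The genes with differences nearest to that of Acta1 were Nrap at -7.35, an actin-anchoring protein of striated muscle, Cacna1s at -7.26, a calcium channel subunit of skeletal muscle, and Slc4a1 at -7.40, the anion exchanger of red cells. Erythroid markers were lower for all 4 measured genes, with a median of -5.59. The nearest to the Acta2 mean of -0.15 were Katnal1, Ppp1r2 and Btg3, and to the Actb mean of 0.27 Tiam1, Nup153 and Ano8. Likeness was taken over 2 arrays by the size of the difference alone, so that for values near 0 it selects among many genes.

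**Figure D5:**
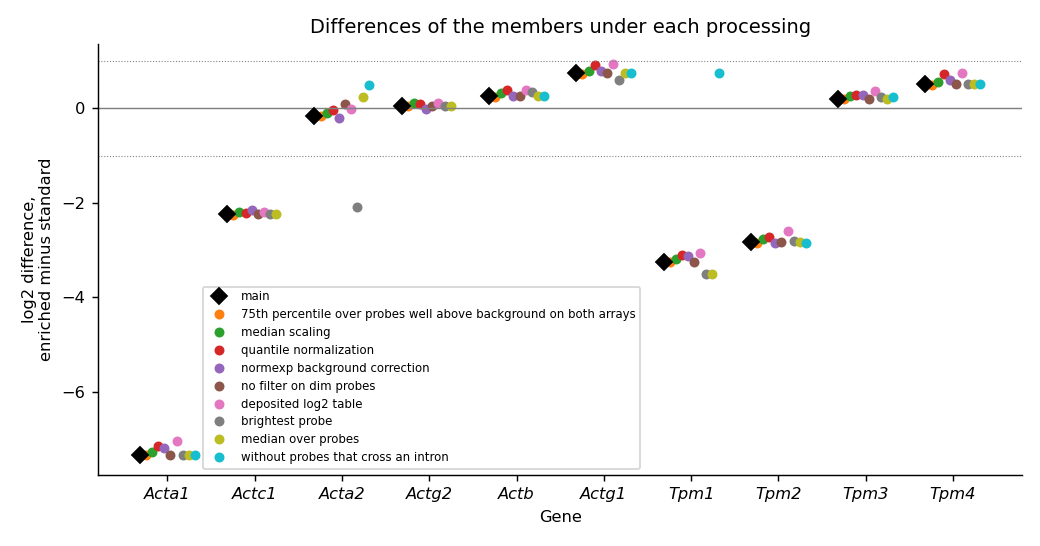
Log2 difference between the pools (enriched minus standard) of the 10 members under the main processing (black diamonds) and 9 alternatives, with dotted lines at 2-fold. Acta1 stays between -7.34 and -7.03, whereas Acta2 ranges from -2.09 to 0.50 and Tpm1 from -3.50 to 0.76 with the probes that are used.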

How the data were processed

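Total RNA of 2 pools was labelled with Cy3, and 1 array was hybridised per pool, per the labels' protocols. The deposited scanner files hold linear spot intensities made with Agilent Feature Extraction 10.7.1.1 (version from the submitters' processing notes). A spatial trend and background were removed, and probe positions are on mm7, per the file headers. A second deposited table holds 30319 log2 values per array, whose scaling and centring are unstated (column medians 8.54 and 8.56). Each column correlated with log2 intensity of its own array across probes (r of 0.9996 and 1.00), so its sign matches the scanner files. A correlation cannot show the log base. Differences from this table were of similar size to the main ones, at -7.03 against -7.33 for Acta1 and -2.19 against -2.24 for Actc1. The deposited table served as an alternative.

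The processed intensity was taken as log2 minus the 75th percentile of its array (an intensity of 753 for the standard pool and 984 for the enriched pool). Of 43379 non-control spots, 66 and 70 marked as outliers were left out, 77.2% and 77.4% were well above background and 0 were saturated. Spots of a probe were averaged, then measured probes of a gene. Symbols came through RefSeq accessions for 22951 probes and unique synonyms for 3109. A difference of at least 2-fold was counted; for a probe measured in 1 pool only, a bound sets its level there against the detection floor of the other pool (lowest level well above background) or its own level in that pool, whichever is higher. Steps were tested on simulated data. Alternatives were 3 other scalings or normalizations, normexp background correction (limma 3.58.1, offset 50), no filter on dim probes, the deposited table, and other ways to combine probes.

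Named were all members, the list genes past 2-fold (the 3 furthest each way where there were more than 6), fixed counterparts of the members, and the 3 genes nearest in difference to Acta1, Acta2 and Actb. Of the list genes past 2-fold, 1 is not reported here. Members and lists were chosen with earlier results of these data known.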

Additional observations from a re-analysis of the deposited data

How the results depend on the processing

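Over 22 results and 9 alternatives, 177 of 196 values stayed close to the main value, 17 moved further and 2 reversed. Close meant within the spread between probes of a gene for differences and medians, and within 1.5 times for counts of genes. That spread was 1.45 for Acta2 and 3.88 for Tpm1, so large changes in these genes counted as close. Changes of sign within the spread also did, such as Acta2 at 0.24 or 0.50 against -0.15 and Actg2 at -0.02 against 0.06. Leaving out probes that cross an intron, an alternative chosen after seeing the data, reversed Tpm1 to 0.76 and the tropomyosin median to 0.38, and moved the medians of striated actins to -7.33, of smooth muscle actins to 0.50 and of the striated thin filament list to -5.44; Actc1 and Actg2 then had no probe. With the brightest probe Acta2 was -2.09 and the smooth muscle actin median -1.01, and with the median over probes the latter was 0.15. Quantile normalization gave -7.14 for Acta1 and 0.73 for Tpm4. The deposited log2 table gave -7.03 for Acta1, 0.95 for Actg1, -2.60 for Tpm2, 0.75 for Tpm4 and -1.12 for the tropomyosin median, and placed 1 of the Actg1 probes at 1.02, just past 2-fold. Normexp correction, whose offset draws dim probes together, gave -4.33 for the striated thin filament median and 648 genes at least 2-fold higher against 1154. Without a filter on dim probes, 3685 genes against 1923 were at least 2-fold lower and the transcription regulator median was -0.33. Acta1, Actc1 and Tpm2 stayed at least 2-fold lower under every alternative that gave them a value, while Tpm1 did so under the 8 planned ones only. No paired analysis was possible because each group was 1 pool. Signal over background limits the dim Acta2 probes and Myocd.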
